A study of Gallus gallus with 16 samples.

Results

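Gene expression was compared between HH25 and HH18 in the cells of the chick vagal region that showed no reporter signal, here called negative cells. HH stands for the Hamburger-Hamilton stages of chick development. The comparison used 4 of the 16 RNA-seq libraries of the series, 2 of negative cells at HH25 and 2 of negative cells at HH18, chosen by their labels. All embryos were wild type, and those of HH18 and HH25 had been electroporated at HH8 or HH9 with 2 enhancer reporters, NC2 and E2. Vagal regions were then dissected and dissociated, and cells were sorted by fluorescence. The negative groups hold cells labelled NC2- and E2-, which the labels call a negative control. Beside them stand 2 populations sorted at the same stages with 2 libraries each: E2 cells, labelled NC2- and E2+, and double-positive (DP) cells, labelled NC2+ and E2+. Negative and E2 cells of HH10 embryos, electroporated at HH4, give the earlier levels; the series text and the count table's columns call that stage HH12.

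As background, the vagal neural crest leaves the dorsal neural tube at the level of the caudal hindbrain and the first somites and forms most of the enteric nervous system. The NC2 enhancer belongs to FOXD3 and the E2 enhancer to SOX10, both genes for transcription factors of the crest. Cells without reporter signal are therefore a mixture that can hold neural tube, somite, pharyngeal, surface and blood cells, and also crest cells that the electroporation did not reach. In such bulk samples fewer cells of a type and less RNA per cell cannot be told apart. No labelled cell type exists for this group whose defining markers could be checked. The table identifies genes by Ensembl IDs only, and the reference table at hand paired 0 of them with a symbol, so that genes are described here by position, structure and level, and none of 16 prepared marker lists could be looked up.

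Total counts were 20261455 and 9153539 in HH25 negative cells and 7692817 and 4032540 in HH18 negative cells. Genes with at least 1 count numbered 12787 and 13144 at HH25, against 14174 and 13760 at HH18. With every library thinned to about the smallest total, they numbered 12269 and 12836 at HH25, against 13746 and 13760 at HH18. Thinning equalised only the totals: genes in the shortest quartile of exonic length took a larger share of counts at HH25, as given below, so that the depth left for the other genes was not equal. The 2 HH25 libraries also resembled each other less. Their log2 CPM (counts per 1e6 counts) correlated across genes with r = 0.84, the lowest of the 8 groups, against r = 0.95 in HH18 negative cells. Among all genes tested, 41.9% differed more than 2-fold between the 2 HH25 libraries, against 24.0% between the 2 HH18 libraries. The part of detection and of library disagreement in the results below was not tested. Whether replicate libraries were made from different embryos or pools is not stated in the labels, so that p-values cover only the spread seen between libraries, and this spread may be technical.

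Between HH18 and HH25 the transcriptome of negative cells changed at 2170 of 14676 genes tested, with more genes lower than higher at HH25. Genes higher at HH25 numbered 781 (5.32% of genes tested) and genes lower at HH25 numbered 1389 (9.46%), together 14.8%. A gene was called with edgeR's quasi-likelihood test at a Benjamini-Hochberg adjusted p below 0.05, in a fit over all 16 libraries. At an unadjusted p below 0.05 there were 4418 genes, 1787 higher and 2631 lower. The median log2 fold change, HH25 over HH18, was 2.03 for the higher genes (interquartile range 1.53 to 2.82) and -2.14 for the lower genes (interquartile range -3.47 to -1.61), against -0.04 over all genes tested. Every higher gene and all but 1 of the lower genes had HH25 libraries that did not overlap the HH18 libraries, as 61.0% of all genes tested did. With only the 4 libraries compared in the fit the count was 1476, of which 731 were higher and 745 lower, so that the excess of lower genes was nearly absent there. Leaving out an HH18 library left 771 genes (without replicate 1) and 707 genes (without replicate 2), and leaving out HH25 replicate 1 left 888. Of the genes called with all libraries, 55 of the 781 higher and 417 of the 1389 lower were called in all 4 such fits.

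**Figure D1:**
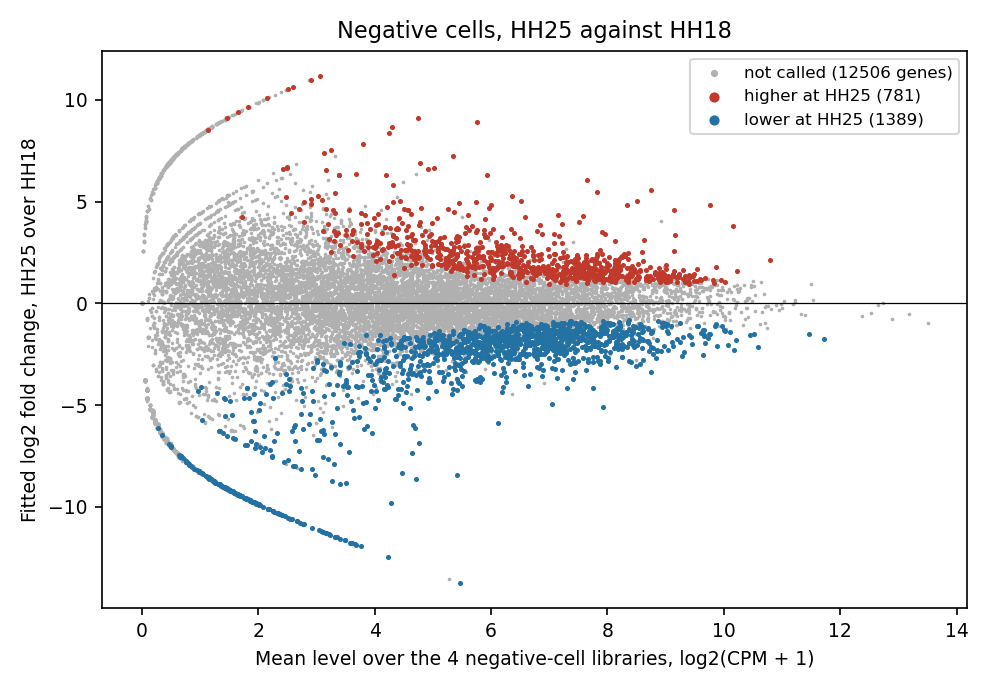
Each point is 1 of the 14676 genes tested in negative cells; the x axis is its mean level over the 4 libraries as log2(CPM + 1) and the y axis its fitted log2 fold change, HH25 over HH18. Red points are the 781 genes higher at HH25, blue points the 1389 lower; the outer arcs are genes without counts in both libraries of a stage, whose fitted fold changes are not bounds.

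The called genes moved a large share of the RNA. The 781 higher genes took 20.4% and 16.4% of all counts in HH25 negative cells, against 5.62% and 5.39% in HH18 negative cells. Their median level was 169 and 125 CPM at HH25, against 36.4 and 32.3 CPM at HH18. The 1389 lower genes took 6.28% and 8.16% of counts at HH25, against 23.8% and 23.2% at HH18. Their median level was 20.6 and 27.1 CPM at HH25, against 103 and 104 CPM at HH18. These shares describe the genes that the test picked and are no further evidence for the calls. HH25 replicate 1, the deeper library, lay farther from HH18 than replicate 2 in both sets.

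Levels at HH10, which was no side of the comparison, lay close to those of HH18 in both sets. The higher genes had a median of 35.0 and 31.6 CPM in HH10 negative cells, and the lower genes a median of 112 and 111 CPM. The plot of median levels by library shows these beside the medians of HH18 and HH25; the difference between HH18 and HH25 was fixed by the choice of genes, so that the steps are not compared. HH10 embryos were electroporated earlier than the others, so that stage and electroporation time cannot be told apart for that step, and it was not tested here.

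**Figure D2:**
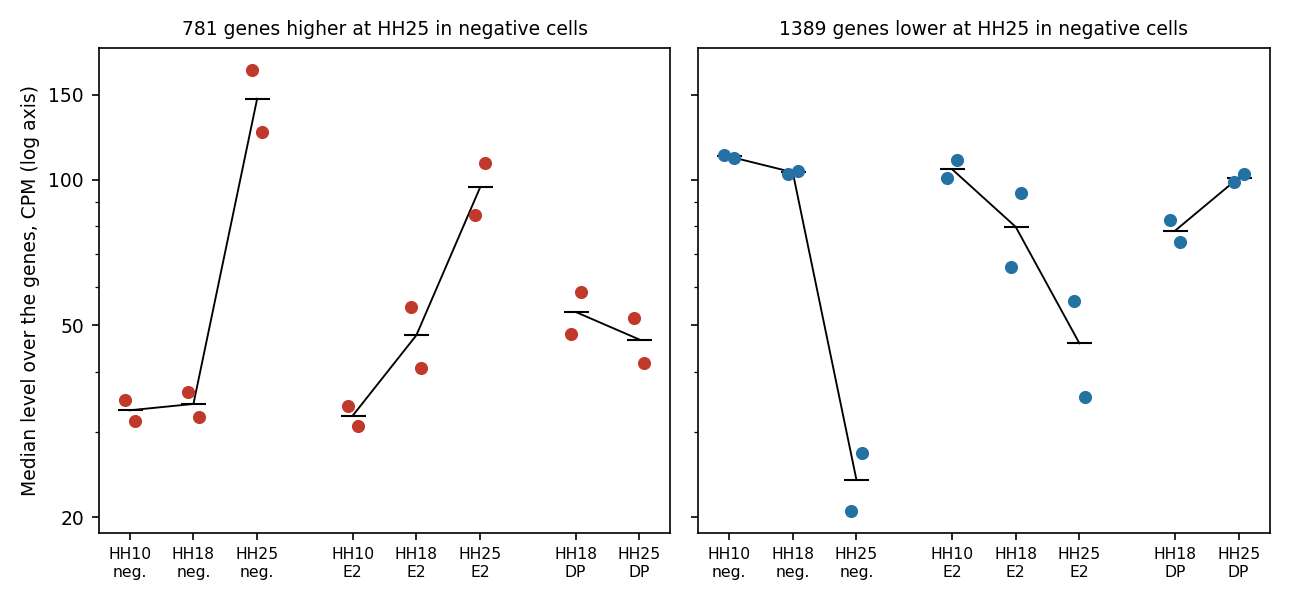
Points are libraries, grouped by population and stage; the y axis (log) is the median CPM over the 781 genes higher at HH25 in negative cells (left) and over the 1389 genes lower (right), bars are the mean of 2 libraries, and lines join the stages of a population. HH25 negative libraries stand at 169 and 125 CPM on the left and at 20.6 and 27.1 CPM on the right, outside all other libraries in both panels.

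Some genes that were detected at HH18 had no read at all at HH25. Among the lower genes, 159 had 0 counts in both HH25 libraries (11.4% of the lower genes, against 8.33% of all genes tested), and 84 more had 0 counts in one of them. Of the 781 higher genes, 9 had 0 counts in both HH18 libraries (1.15%, against 3.97% of all genes tested). The 159 genes were mostly of low level, with medians of 4.79 and 4.21 CPM over the HH18 libraries, and 72 of them averaged at least 5 CPM there. Of the 159, 140 had counts in at least 1 library of HH25 E2 cells (88.1%, against 95.4% of all genes tested) and 152 in at least 1 of HH25 DP cells (95.6%, against 96.0% of all genes tested), and 4 had counts in neither. Their median level was 2.22 and 1.42 CPM in HH25 E2 cells and 3.91 and 4.84 CPM in HH25 DP cells. In HH10 negative cells it was 4.23 and 5.26 CPM. For such a gene the fold change is a lower bound, taken against 3 counts over the HH25 group; with these genes at their bounds the median of the lower set stayed at -2.14.

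The genes named by size of change were at the edge of detection at one of the stages. ENSGALG00000008722 (galGal5 chromosome 8, 16453750 to 16476405, plus strand, 13 exon intervals) had 0 counts in both HH25 libraries, against 346 and 445 counts, or 47.3 and 125 CPM, in the HH18 libraries. It was at least 676-fold lower at HH25 (adjusted p = 0.029 with edgeR), and its call was lost without any 1 of the 4 libraries (adjusted p from 0.059 to 0.14). Levels elsewhere were lower, with 1.48 and 1.97 CPM in HH18 E2 cells, 10.0 and 0 CPM in HH18 DP cells, and 3.29 and 5.30 CPM in HH10 negative cells, although HH10 E2 cells had 0.081 and 19.1 CPM. It was listed at 0 in E2 and DP cells at HH25 as well.

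ENSGALG00000001030 (chromosome 28, 2195249 to 2199827, minus strand, 7 exon intervals) had 0 counts in both HH25 libraries, against 32.6 and 39.0 CPM in the HH18 libraries. It was at least 322-fold lower at HH25 (edgeR, adjusted p = 0.000412), and this call held under all 13 alternatives tried. In HH10 negative cells it stood at 40.8 and 33.2 CPM, so that the HH25 libraries alone lacked it among negative cells. It also had 15.3 and 9.94 CPM in HH25 E2 cells and 33.8 and 24.3 CPM in HH25 DP cells.

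On the other side, ENSGALG00000034109 (chromosome 4, 15808166 to 15949864, minus strand, 17 exon intervals) stood at 18.5 and 11 CPM in HH25 libraries, against 0 counts in both HH18 libraries. It was at least 53.4-fold higher at HH25 (edgeR, adjusted p = 0.013), and the call was lost without either HH18 library (adjusted p = 0.11 without replicate 1 and 0.084 without replicate 2). It was present at HH10, with 8.42 and 5.78 CPM in negative cells. ENSGALG00000028983 (chromosome 2, 32700853 to 32703521, minus strand, 2 exon intervals) had 19.8 and 6.17 CPM at HH25, against 0 counts at HH18. It was at least 47.0-fold higher (edgeR, adjusted p = 0.032), and the call was lost without either HH18 library (0.18 without replicate 1 and 0.16 without replicate 2) and without HH25 replicate 1 (0.13). In HH10 negative cells it had 0.32 and 0.05 CPM.

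The positions of called genes are described by runs of neighbours; with 5.32% of genes called higher and 9.46% lower, neighbours can share a call through the call rate alone, and the number of runs was not tested and is not read as a result. Counting neighbours among tested genes on a chromosome, 25 runs of 3 or more genes were called in the same direction, 11 higher with 36 genes and 14 lower with 42 genes. Of the higher runs 8 had 3 genes and 3 had 4 genes, and all lower runs had 3 genes. The 3 runs with the most signal in each direction are described next, with CPM summed over their genes. Counting strand is not given in the sources used here, so that reads of overlapping or antisense genes within a run may be shared, as may reads of near-identical copies.

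The highest run held 3 genes over 16.6 kb on chromosome 3 (107900662 to 107917298). It summed to 3469 and 3308 CPM in HH25 negative cells, against 29.7 and 229 CPM in HH18 negative cells, a mean of 3389 ± 114 CPM against 129 ± 141 CPM (SD, n = 2 each) and 26.2 times as much. The next, 3 genes over 7.62 kb on chromosome 2 (4018778 to 4026402), summed to 1637 and 1438 CPM at HH25, against 15.2 and 60.6 CPM at HH18, or 40.6 times as much. In E2 and DP cells of any stage the chromosome 3 run reached at most 1.70 CPM and the chromosome 2 run at most 3.22 CPM. Within negative cells both had the same order over the stages, with 0 CPM in both HH10 libraries for the run on chromosome 3 and 0.45 and 1.04 CPM for that on chromosome 2, higher levels at HH18 and the highest at HH25. The HH18 libraries differed several-fold in both regions, and replicate 2 was the higher.

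The 3 genes of the chromosome 3 run had log2 fold changes of 4.58 to 4.81 (edgeR, adjusted p from 0.0082 to 0.024), and DESeq2 called 0 of the 3. Those of the chromosome 2 run had 5.05 to 6.05 (edgeR, adjusted p from 0.0023 to 0.0043), and all 3 were called under every alternative tried. The third run spread 3 genes over 513 kb on chromosome 3 (56452905 to 56965780). It summed to 742 and 800 CPM at HH25, against 259 and 384 CPM at HH18, 2.4 times as much. A gene with 6 exon intervals carried most of that sum, with 657 and 744 CPM at HH25, against 254 and 379 CPM at HH18 (log2 fold change 1.15 ± 0.27 SE, edgeR, adjusted p = 0.015). A gene with 2 exon intervals at the other end had the larger fold change, 4.68 ± 0.80 SE on the log2 scale, from 68.3 and 34.9 CPM at HH25, against 2.05 and 1.96 CPM at HH18. In that run 1 of the 3 genes was still called without HH18 replicate 1 or with only the 4 libraries compared.

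The lower runs were abundant in every population. On chromosome 7 (30817925 to 30916302), 3 genes over 98.4 kb summed to 460 and 573 CPM in HH25 negative cells, against 1806 and 1707 CPM in HH18 negative cells, and were 3.40 times higher at HH18. Most of the difference came from a gene with 17 exon intervals, at 131 and 114 CPM at HH25, against 780 and 797 CPM at HH18 (log2 fold change -2.68 ± 0.32 SE, edgeR, adjusted p = 0.00066). In that run 1 of the 3 genes was still called without HH18 replicate 1, without HH18 replicate 2 or without HH25 replicate 1. On chromosome 1 (35216064 to 35282437), 3 genes over 66.4 kb summed to 419 and 498 CPM at HH25, against 1489 and 1386 CPM at HH18, which was 3.14 times higher at HH18. On chromosome 20 (12221204 to 12241896), 3 genes over 20.7 kb summed to 314 and 279 CPM at HH25, against 935 and 1555 CPM at HH18, which was 4.20 times higher at HH18. The HH18 libraries differed there mainly at a gene with 3 exon intervals, at 444 and 1041 CPM. In HH10 negative cells the chromosome 20 run summed to 570 and 481 CPM, below HH18. The chromosome 7 run had 2141 and 1509 CPM there, and the chromosome 1 run 1189 and 1234 CPM. The genes of the runs on chromosomes 1 and 20 had log2 fold changes from -1.38 to -2.48 and kept enough calls under every alternative to count at least 2 of 3.

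E2 cells had these lower regions at levels above those of HH25 negative cells at both stages. The chromosome 7 run summed to 1069 and 889 CPM in HH25 E2 cells, against 1905 and 1837 CPM in HH18 E2 cells. The chromosome 1 run summed to 811 and 679 CPM in HH25 E2 cells, against 969 and 1005 CPM in HH18 E2 cells. The chromosome 20 run summed to 360 and 361 CPM in HH25 E2 cells, against 595 and 681 CPM in HH18 E2 cells. All 3 runs were thus lower at HH25 in every E2 library too. No gene of any of the 25 runs was called as differing between the stage steps of negative and E2 cells. That test called 3 of the 14676 genes tested (0.0204%), so that nothing is read from the absence of calls in the runs.

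**Figure D3:**
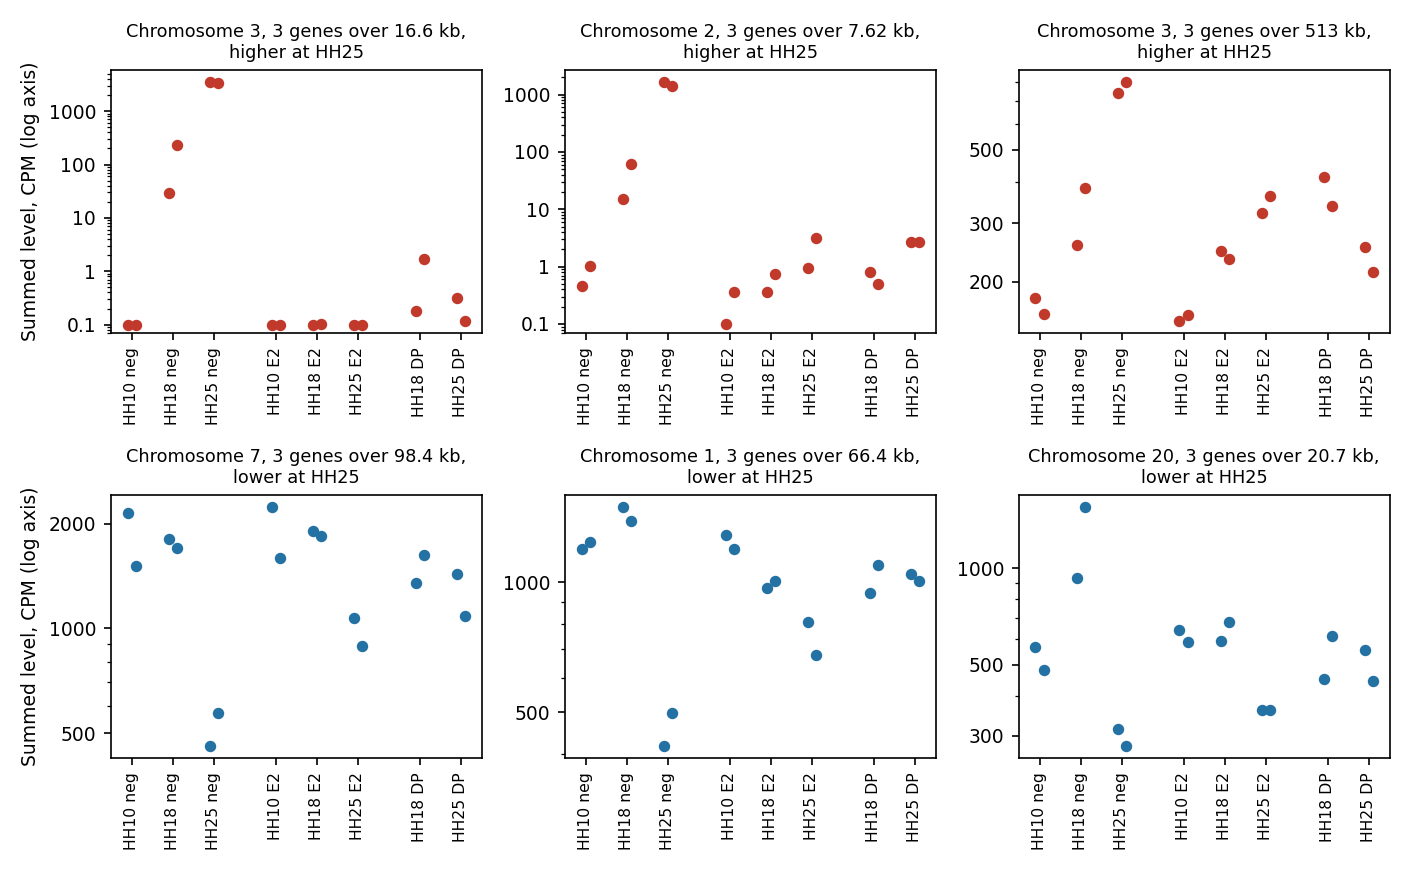
Points are libraries, by population and stage; the y axis (log, scaled for each panel) is the summed CPM of the 3 genes of a run, with values under 0.1 CPM drawn at 0.1. The top row shows the 3 higher runs with the most signal, where the first 2 stand at 1438 CPM or more in HH25 negative cells and at 229 CPM or less in all other libraries, and the bottom row the 3 lower runs, where the HH25 negative libraries are the lowest.

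Of the smaller runs, 3 were picked out after their values had been seen, and named genes lie in or beside those on chromosomes 2 and 27. On chromosome 2, 3 genes on the minus strand (32666501 to 32690449) summed to 228 and 178 CPM in HH25 negative cells, against 12.0 and 10.9 CPM in HH18 negative cells, 17.7 times as much. ENSGALG00000028983 lies 10.4 kb beyond that run, with 1 tested gene between. On chromosome 27, 4 genes on the plus strand (3795352 to 3820558) summed to 173 and 187 CPM at HH25, against 23.9 and 20.8 CPM at HH18, 8.06 times as much. Unlike the first 2 higher runs described above, both were also seen in E2 cells. The third higher run, from 56452905 on chromosome 3, was seen there too. It summed to 323 and 363 CPM in HH25 E2 cells, against 247 and 233 CPM in HH18 E2 cells. The run on chromosome 2 had 105 and 90.4 CPM in HH25 E2 cells, against 42.8 and 24.3 CPM in HH18 E2 cells. That on chromosome 27 had 141 and 126 CPM in HH25 E2 cells, against 61.1 and 42.9 CPM in HH18 E2 cells. In HH10 negative cells the chromosome 27 run stood at 99.8 and 73.6 CPM and the chromosome 2 run at 16.4 and 17.2 CPM, both above HH18. In DP cells the chromosome 27 run had 53.2 and 40.8 CPM at HH25, against 3.16 and 17.1 CPM at HH18. The chromosome 2 run had 18.9 and 17.6 CPM in HH25 DP cells, against 2.52 and 5.54 CPM in HH18 DP cells. On chromosome 16, which carries the chicken major histocompatibility complex, 4 genes (90602 to 115717) summed to 555 and 347 CPM in HH25 negative cells, against 137 and 108 CPM in HH18 negative cells, 3.68 times as much.

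Gene structure separated the genes that were higher from those that were lower. The higher genes were short, with a median exonic length of 1.15 kb, 5 exon intervals and a genomic span of 4.24 kb. The lower genes had a median exonic length of 2.4 kb, 12 exon intervals and a span of 16.6 kb. All genes tested lay between, at 1.87 kb, 8 exon intervals and 11.8 kb. Interquartile ranges of exonic length were 0.731 to 1.88 kb for the higher and 1.89 to 3.03 kb for the lower genes and did not overlap.

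By quartiles of exonic length, 418 genes were higher and 103 lower in the shortest quartile (up to 1.20 kb), or 11.4% and 2.81% of that quartile. In the next quartile (up to 1.87 kb) 164 were higher and 233 lower. In the third quartile (up to 2.91 kb) the balance was the other way, with 66 genes higher (1.80%) and 645 lower (17.6%). In the longest quartile 133 were higher and 408 lower. The relation was not even along length: over deciles, the median log2 fold change was 1.19 in the shortest decile, -0.83 in the seventh, -0.84 in the eighth and 0.33 in the longest decile. In the longest decile 83 genes were higher (5.66%) and 60 lower (4.09%), against 5.32% and 9.46% of all genes tested.

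Abundant genes showed the split most clearly. In the quartile of genes with the highest mean level, 240 of 559 genes of the shortest quartile were higher at HH25 (42.9%) and 7 were lower. At that level, 433 of 1187 genes of the third length quartile were lower (36.5%) and 30 were higher. Calls of either kind also became more frequent with level, from 0.354% higher and 1.31% lower in the quartile of lowest level to 10.5% higher and 21.9% lower in that of highest level, where the test has the most reads to work with.

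**Figure D4:**
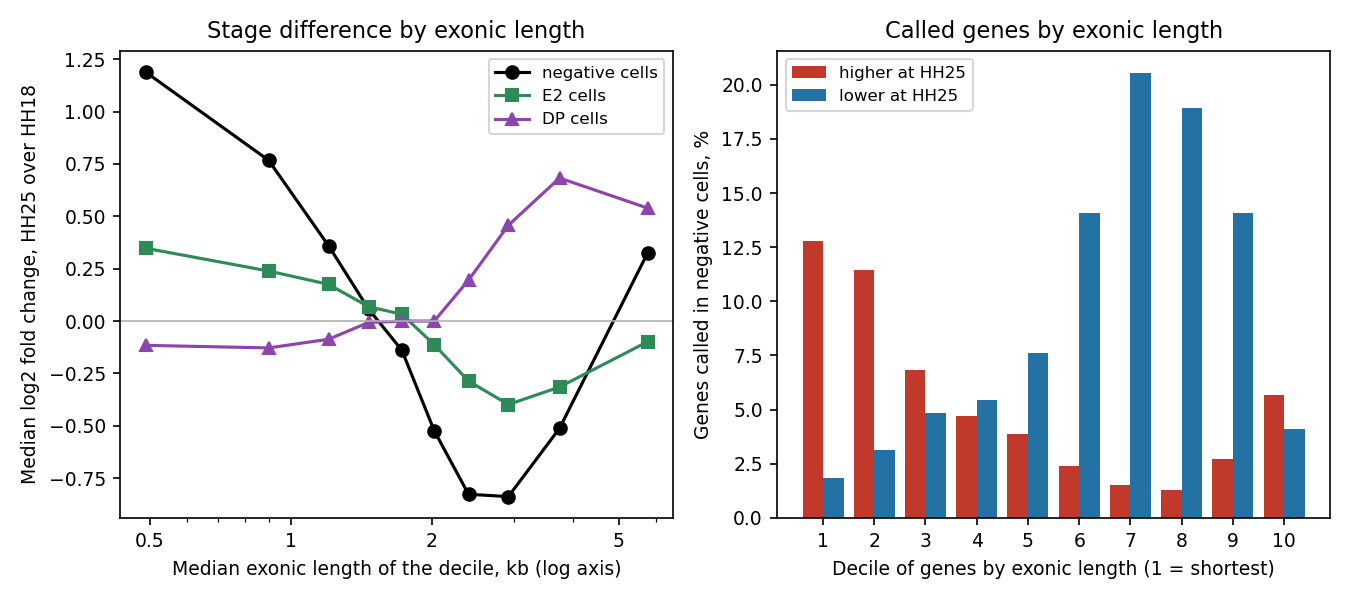
On the left, lines give the median fitted log2 fold change, HH25 over HH18, in deciles of genes by exonic length (x axis, kb, log scale) for negative, E2 and DP cells; on the right, bars give the percentage of each decile that was called in negative cells, red for higher and blue for lower at HH25. Negative cells run from 1.19 in the shortest decile to -0.84 in the eighth and back to 0.33 in the longest, while DP cells rise with length to 0.68 in the ninth decile.

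The same balance was measured in each library without any call. Genes of the shortest quartile took 32.5% and 27.7% of counts in HH25 negative cells, against 14.9% and 18.2% in HH18 negative cells. Genes of the longest quartile took 15.8% and 18.1% at HH25, against 23.3% and 21.6% at HH18. The median log2 CPM of the shortest minus that of the longest quartile was -1.87 and -2.31 at HH25 (mean -2.09 ± 0.31), against -2.85 and -2.94 at HH18 (mean -2.89 ± 0.064, SD, n = 2 each). The stages did not overlap, but 2 against 2 libraries cannot give an exact two-sided p below 0.333, so that no test of single values was run. HH10 negative cells lay further out in the same order, at -3.39 and -4.01. HH25 DP cells lay in that range too, at -3.36 and -3.89, against -3.20 and -2.61 in HH18 DP cells. The lowest values of the series were in the libraries numbered 3, with -4.01 in HH10 negative, -3.99 in HH10 E2 and -3.89 in HH25 DP cells. These libraries also had the highest total counts, 39385794, 45313160 and 37459288. The part of library number or depth in this measure was not tested.

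Taken over all genes tested, length therefore moved with the stage comparison, and its part in the calls was not tested. The relation varied with level. In the quartile of highest mean level the median log2 fold change was 1.13 in the shortest and -0.71 in the longest length quartile. It was 0.75 and 0.33 in the second-lowest level quartile, and 0.45 and 0.06 in the lowest. In that lowest level quartile 6 of the shortest genes were called higher and 28 lower. On fitted log2 fold changes, the median of the shortest minus that of the longest quartile was 1.12 in negative cells. It was 0.71 without HH25 replicate 1, 0.40 with no filter on low counts, 0.74 without the called genes and 0.20 with DESeq2, which kept 17370 genes; it was above 0 under every alternative tried. The same contrast was 0.52 in E2 cells and -0.74 in DP cells. In E2 cells it was 0.11 without HH18 replicate 2 and 0.87 without HH18 replicate 1, and in DP cells it was -0.38 without HH18 replicate 2 and -0.42 without HH25 replicate 3.

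By pooled chromosome class, on chromosomes 1 to 9, 4.99% of genes were higher and 10.4% lower, against 6.12% and 7.97% on the other numbered chromosomes. On the Z chromosome 25 of 728 genes were higher (3.43%) and 70 lower (9.62%), and on W 0 of 23 were higher and 1 was lower. W genes together had 192 and 190 CPM, not scaled by TMM, in HH25 negative cells, against 297 and 214 CPM in HH18 negative cells, so that reads on W were present in all 4 libraries. On the same scale they had 37.3 and 75.2 CPM in HH25 DP cells, against 313 and 306 CPM in HH18 DP cells. E2 cells had 309 and 261 CPM at HH25, against 518 and 588 CPM at HH18. The part of W reads in the differences between steps given below was not tested. Numbered chromosomes with very few genes tested were not ranked. Among the others, chromosome 16, with 50 genes tested, and chromosome 33, with 88, had the highest medians, 0.95 and 0.81 on the log2 scale. These chromosomes were chosen after their values had been seen.

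E2 cells of the same embryonic region, sorted at the same stages, formed no side of the comparison that chose the called genes, but their libraries entered its filter, scaling and estimate of spread. The labels do not say whether E2 and negative cells were sorted from the same embryos. In E2 cells the 781 higher genes had a median log2 difference, HH25 over HH18, of 0.81, and 748 of them (95.8%) lay above 0, against 47.8% of all genes tested. The 1389 lower genes had a median of -0.76, and 1251 of them (90.1%) lay below 0, against 50.9% of all genes. These medians were closer to 0 than the 2.03 and -2.14 of negative cells, by whose values the genes had been chosen. Exonic length went with the E2 step too, over called and uncalled genes together, though not at every level. In the quartile of highest mean level the median E2 step was 0.42 in the shortest length quartile. It was -0.30 in the third and -0.49 in the longest. In the second-lowest quartile of level it was 0.15 in both the shortest and the longest length quartile. The part of length in the medians of the called genes was not tested. With genes chosen from the 4 negative libraries alone and the E2 step fitted on the 4 E2 libraries alone, 709 higher genes had a median of 0.82, with 95.5% above 0, and 726 lower genes a median of -0.87, with 7.3% above 0. Leaving out an E2 library, which also changes the genes called, put the median of the higher genes between 0.48 (without HH25 replicate 2, with 84.3% above 0) and 1.15 (without HH18 replicate 1). It put that of the lower genes between -0.51 (without HH18 replicate 2) and -1.23 (without HH25 replicate 1). Among genes at an adjusted p below 0.01 in negative cells the median of the higher genes was 1.26.

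By library, the higher genes had a median of 84.7 and 108 CPM in HH25 E2 cells, against 54.6 and 40.7 CPM in HH18 E2 cells. The lower genes had a median of 56.1 and 35.5 CPM in HH25 E2 cells, against 65.9 and 93.8 CPM in HH18 E2 cells. The stages did not overlap in either set. Few single genes passed the test in E2 cells: 63 were called (0.429%), 40 higher (0.273%) and 23 lower (0.157%). Of those 40 higher genes, 31 (77.5%) were among the 781, which is 3.97% of the 781. Of the 23 lower genes, 17 (73.9%) were among the 1389, which is 1.22% of the 1389. Of all genes tested, the 781 are 5.32% and the 1389 are 9.46%.

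Whether the stage step of negative cells differed from that of E2 cells was tested as a difference between the contrasts. It was called at 3 genes (0.0204%), 0 with a more positive and 3 with a more negative step in negative cells. At an unadjusted p below 0.05 there were 1529 genes, 417 in the first direction and 1112 in the second, and DESeq2 called 376, of which 68 and 308. The count thus depended on the tool and on single libraries: it was 332 without HH25 negative replicate 2, 24 without HH25 negative replicate 1, 8 without HH25 E2 replicate 2, 1 without HH18 E2 replicate 2, and 0 without HH18 E2 replicate 1 or HH18 negative replicate 2. A small count here does not show that the populations took the same step.

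The 3 genes were all without counts in HH25 negative cells. ENSGALG00000001030, described above, had 15.3 and 9.94 CPM in HH25 E2 cells, against 12.1 and 20.6 CPM in HH18 E2 cells (edgeR, adjusted p = 0.015 for the difference). ENSGALG00000041787 (chromosome 11, 128183 to 135591, plus strand, 4 exon intervals, overlapping 1 gene on the other strand) had 0 counts in HH25 negative cells, against 24.4 and 25.8 CPM in HH18 negative cells. It had 13.2 and 10.0 CPM in HH25 E2 cells, against 12.8 and 22.9 CPM in HH18 E2 cells (edgeR, adjusted p = 0.015). Both differences were lost with only the 8 libraries compared in the fit (adjusted p = 0.12), without either HH18 E2 library (0.14 without replicate 1 and 0.059 without replicate 2) and without HH18 negative replicate 2 (0.0505). A gene on chromosome 1 (50098087 to 50115325, minus strand, 19 exon intervals), singled out after its values had been seen, had 0 counts in HH25 negative cells, against 13.4 and 18.5 CPM in HH18 negative cells. In E2 cells it had 3.28 and 1.99 CPM at HH25, against 4.36 and 4.75 CPM at HH18 (edgeR, adjusted p = 0.031). That call was lost without either HH18 E2 library, either HH18 negative library or HH25 E2 replicate 1. It was also lost with every library thinned to about the smallest total (edgeR, adjusted p = 0.058) and with only the 8 libraries compared in the fit (edgeR, adjusted p = 0.17).

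**Figure D5:**
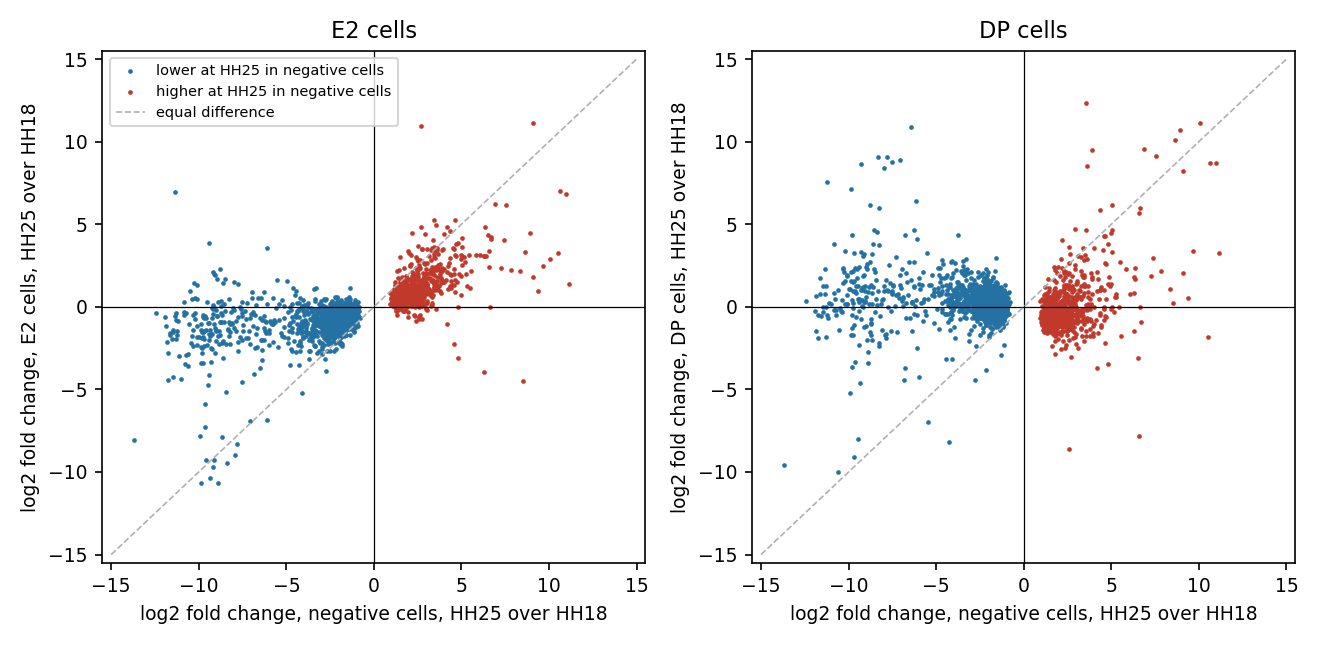
Each point is 1 of the 2170 genes called in negative cells, red if higher and blue if lower at HH25; the x axis is the fitted log2 fold change, HH25 over HH18, in negative cells and the y axis the same step in E2 cells (left) and DP cells (right), with a dashed line of equal difference. In E2 cells 95.8% of red points lie above 0 and 90.1% of blue points below 0, whereas in DP cells 32.9% of red points lie above 0 and 33.6% of blue points below 0.

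The called genes were also followed in DP cells. There the 781 higher genes had a median log2 difference of -0.40, and 257 of them (32.9%) lay above 0, against 55.2% of all genes tested. Without 1 DP library, which also changes the genes called, that median was -0.62 (HH18 replicate 1), -0.20 (HH18 replicate 2, with 41.9% above 0), -0.68 (HH25 replicate 2) and -0.33 (HH25 replicate 3), and at an adjusted p below 0.01 it was -0.19. The 1389 lower genes had a median of 0.29, and 467 of them (33.6%) lay below 0, against 42.8% of all genes. With genes chosen from the 4 negative libraries alone that median was 0.18. Over all genes tested the median DP step was 0.16. It was also 0.16 in the third quartile of exonic length and 0.61 in the longest. Exonic length went with the DP step as well, over called and uncalled genes together. In the quartile of highest mean level the median DP step was -0.78 in the shortest length quartile. It was -0.07 in the third and 0.43 in the longest. The part of length in the DP medians of the called genes was not tested. In library terms the higher genes had a median of 51.6 and 41.7 CPM in HH25 DP cells, against 47.9 and 58.5 CPM in HH18 DP cells, which overlap. The lower genes had a median of 99.1 and 103 CPM in HH25 DP cells, against 82.3 and 74.4 CPM in HH18 DP cells. Within DP cells 139 genes were called (0.947%), 56 higher (0.382%) and 83 lower (0.566%). Of the 56, 20 (35.7%) were among the 781, which are 5.32% of genes tested, and 5 (8.93%) were among the 1389, which are 9.46%. Of the 83, 9 (10.8%) were among the 1389, and 7 (8.43%) were among the 781. The overlaps with the 1389 thus lay near the share of these genes among all genes tested, and nothing is read from them.

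The test of the difference between the steps of negative and DP cells called 2124 genes (14.5%), 851 with a more positive step in negative cells (5.8%) and 1273 with a more negative one (8.67%). Of the 781 higher genes, 456 (58.4%) were called as having the more positive step in negative cells, and 3 the more negative. Of the 1389 lower genes, 904 (65.1%) were called as having the more negative step and 0 the more positive. The same negative-cell libraries chose these genes, so that nothing is read from those shares. Over all genes tested, this difference had a median of -0.36 under TMM and of -0.20 under RLE size factors, and the split was 938 against 1090 with the RLE factors. The count was 656 without HH18 negative replicate 1, 774 without HH18 negative replicate 2, 1069 without HH25 negative replicate 1, 1106 without HH18 DP replicate 2 and 671 without HH25 DP replicate 3.

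Among the genes with the most different steps, ENSGALG00000013094 (chromosome 2, 81012156 to 81057410, minus strand, 11 exon intervals) had its higher levels at HH18 in negative cells and at HH25 in DP cells, where the step itself did not pass (edgeR, adjusted p = 0.080). It had 0 and 0.45 CPM in HH25 negative cells, against 12.9 and 22.4 CPM in HH18 negative cells, and 18.5 and 5.65 CPM in HH25 DP cells, against 0 counts in HH18 DP cells (edgeR, adjusted p = 0.0090 for the difference). The call held under all 15 alternatives tried. In negative cells pooled counts gave a ratio of 111, HH18 over HH25 (95% counting interval 42.8 to 414). ENSGALG00000008890 (chromosome 8, 18389085 to 18659243, plus strand, 19 exon intervals, overlapping 1 gene on the same strand) had 0 counts in HH25 negative cells, against 20.4 and 10.1 CPM in HH18 negative cells. In DP cells it had 0 and 2.34 CPM at HH25, against 0 counts at HH18 (edgeR, adjusted p = 0.023). That call rested on HH25 DP replicate 3 (adjusted p = 0.9998 without it) and was also lost without HH18 DP replicate 2, HH18 negative replicate 1 or HH25 negative replicate 1 (0.063 to 0.069).

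In the other direction, ENSGALG00000006216 (chromosome 5, 12184436 to 12187655, plus strand, 3 exon intervals, overlapping 1 gene on the other strand) had 77.2 and 38.1 CPM in HH25 negative cells, against 0.41 and 0.84 CPM in HH18 negative cells. Pooled counts gave a ratio of 117, HH25 over HH18 (95% counting interval 53.8 to 320.1). In DP cells it had 0 counts at HH25, against 0 and 2.80 CPM at HH18 (edgeR, adjusted p = 0.0099 for the difference), and the call was lost without HH18 DP replicate 2 (0.9999), HH25 DP replicate 3 (0.052) or HH18 negative replicate 1 (0.053). E2 cells had it at 6.56 and 13.3 CPM at HH25, against 1.17 and 0.76 CPM at HH18. ENSGALG00000037619 (chromosome 27, 3813038 to 3814998, plus strand, 2 exon intervals, overlapping 1 gene on the other strand), which lies within the chromosome 27 run, had 14.3 and 4.6 CPM in HH25 negative cells, against 0 counts in HH18 negative cells. It had 0 and 0.071 CPM in HH25 DP cells, against 0 and 0.33 CPM in HH18 DP cells (edgeR, adjusted p = 0.034). That call was lost without either HH18 negative library, HH25 negative replicate 1, HH18 DP replicate 2 or either HH25 DP library, and with only the 8 libraries compared (adjusted p from 0.056 to 0.9999).

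Of the 6 runs described first, the run on chromosome 1 had all 3 genes called as differing between the steps of negative and DP cells. That on chromosome 20 had 2, and the others had 1 each. Such a call was made at 14.5% of all genes tested, but at 58.4% of the higher and 65.1% of the lower genes in the direction of their step. The negative-cell libraries that chose the runs also entered this test, so that nothing is read from these counts. In DP cells the chromosome 1 run summed to 1044 and 1007 CPM at HH25, against 942 and 1094 CPM at HH18, levels that overlap. The chromosome 20 run summed to 555 and 446 CPM in HH25 DP cells, against 452 and 617 CPM in HH18 DP cells, which overlap as well.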

How the data were processed

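The authors deposited raw counts of reads per gene, and the values are whole numbers with a different total in each library. Per the labels' protocols, RNA with an integrity number above 6 was made into SMART-Seq v4 cDNA and Nextera XT libraries and sequenced as 40 bp pairs. The submitters' processing notes name STAR 2.4.2a, Subread 1.4.5, featureCounts and DESeq2, and the galGal5 build; the sources used here do not give the settings for strand and multiple matches. Of 24881 genes, 7511 had no count in any library, and 3635 of 3670 sequences held none, so that nothing is read from genes there.

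The test was edgeR's quasi-likelihood F test (edgeR 4.0.16, R 4.3.3) with TMM, filterByExpr (14676 genes kept), 8 group means over 16 libraries, 8 residual degrees of freedom and Benjamini-Hochberg adjustment. Levels are TMM-scaled CPM, and errors are SD over 2 libraries unless marked SE. An SE is the absolute log2 fold change divided by the square root of the test's F statistic. Alternatives were RLE size factors, DESeq2 1.42.0, no filter, a filter of 5 CPM in 2 libraries and only the libraries compared. A replicate block, thinning, a threshold of 0.01 and leaving out each library of the groups compared were also tried. No HH10 library was left out. Fits without the block on the same libraries were chosen after seeing the data, as were, for exonic length, the minimum of 10 CPM and leaving out called genes and, for exonic length and medians, groups at 0 set to their bound. PCR duplicates carry no molecular identifiers, so intervals (95%) and the floor of 3 counts cover counting error only. The test of HH25 against HH18 negative cells was checked on simulated counts, and the tests of differences between steps were not. The simulation gave each gene the same spread in every group.

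Named genes were those with the most extreme log2 fold changes in a comparison, 2 in each direction, out of called genes whose libraries did not overlap and whose higher group averaged 5 CPM or more; where fewer passed, fewer are named. A run is 3 or more neighbouring tested genes called in the same direction. The comparison, lists and rules were chosen with earlier results of these data known.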

Additional observations from a re-analysis of the deposited data

Results flagged for a closer look

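The stage step of negative cells, HH25 over HH18, was compared with that of labelled cells by testing the difference between contrasts with edgeR. Against E2 cells 3 genes passed an adjusted p below 0.05, and against DP cells 2124 did.

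Against E2 cells, a more negative step in negative cells was called at ENSGALG00000001030 (edgeR, adjusted p = 0.0151) and at ENSGALG00000041787 (edgeR, adjusted p = 0.0151). The same was called at the gene on chromosome 1 from 50098087 to 50115325 (edgeR, adjusted p = 0.0306). Against DP cells, a more negative step in negative cells was called at ENSGALG00000008890 (adjusted p = 0.0227) and ENSGALG00000013094 (adjusted p = 0.00896). A more positive step was called at ENSGALG00000006216 (adjusted p = 0.00987) and ENSGALG00000037619 (adjusted p = 0.0337). Groups of 2 libraries are too small to ask whether a sample lies far from the others.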

How the results depend on the processing

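For HH25 against HH18 negative cells, with 2170 genes called, 3646 were called with DESeq2 (1634 higher, 2012 lower), 656 at an adjusted p below 0.01, 1358 with the replicate number as a block, and 707 to 2342 without 1 of the 4 libraries. DESeq2 also called 775 of the 781 higher and 1387 of the 1389 lower genes. No called gene was called in the opposite direction without a library. For the difference from E2 cells, with 3 genes, the counts were 376 with DESeq2, 48 with no filter, 13 with the stricter filter, 5 after thinning, 0 with only the libraries compared, 0 with the replicate block, 0 without the block on the same libraries, 0 at an adjusted p below 0.01, and 0 to 332 without 1 library. For the difference from DP cells, with 2124 genes, they were 3498 with DESeq2, 423 at an adjusted p below 0.01, and 656 to 2737 without 1 library. The cause of these shifts was not tested. Leaving out a library leaves its group with 1, which is assumed to vary like the other groups.

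The block changes calls but has no design behind it: the labels give no meaning to replicate numbers, and the deviations of same-numbered negative libraries correlated with r = -0.011 over 14676 genes. Without the block the same libraries gave 2003 calls. Under the block ENSGALG00000028983 lost its call (edgeR, adjusted p = 0.056, against 0.031 without the block on the same libraries). The 3 genes called against E2 cells were not called on these libraries with the block (edgeR, adjusted p from 0.13 to 0.21). Without the block they were not called there either (edgeR, adjusted p from 0.083 to 0.12). No paired analysis was possible for DP cells because the HH25 DP columns carry the numbers 2 and 3.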
